A study of Mus musculus with 6 samples.

Results

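A set of 10 genes, 9 of the endoplasmic reticulum (ER) stress response and Crebrf, was followed in hippocampal RNA-seq of WT and TG mice. They were Hspa5, Hsp90b1, Calr, Pdia4, Dnajb9, Herpud1, Xbp1, Atf4, Ddit3 and Crebrf, found as the rows of the deposited gene table that carry these symbols. The symbols matched 11 rows for 10 genes, out of 54532 genes in the table. Ddit3 had another row, a model of 105 bases that lies inside the main gene and was listed at 0 in all 6 libraries, so it was left out. All 10 genes were above the level needed for testing, an FPKM (fragments per kilobase of gene, scaled to the depth of the library) averaging 0.1 or more, and so were 20952 genes of the table.

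TG mice carried G82R and L85P in GLT-1, the astrocytic glutamate transporter encoded by Slc1a2, which were introduced with CRISPR/Cas9 in C57BL/6N mice that were then bred with C57BL/6. WT littermates without the changes were the controls, and the labels name no treatment beside the genotype. There were 3 mice per genotype, with 1 library from the hippocampus of each, named by genotype and number as WT1, WT2, WT3, TG1, TG2 and TG3. Values of single libraries are given in this order. Age, zygosity and the number of founders of the sequenced mice are not given in the sources used here. Xist had an FPKM of at most 0.018 in any library, and Y-linked genes summed to 20.5 to 24.8, so all 6 libraries read as male. The study also examined STIM1, Orai1 and phosphorylated CaMKII in HeLa cells that carried such variants. From these and from the binding of GLT-1 to STIM1 and Orai1, it proposes that store-operated calcium entry may be reduced. It does not report a measurement of that entry. By electron microscopy it describes swelling of the ER in such cells. In the hippocampus of TG mice it reports GLT-1 protein as nearly lost. Orai1 and phosphorylated CaMKII were lower there, and STIM1 was not. RNA-seq asked how the hippocampal transcriptome of TG mice differs. The genes below address the ER side of that question.

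The unfolded protein response is the program by which a cell adjusts the folding capacity of its ER. When unfolded proteins draw the chaperone BiP away from the lumenal sides of PERK, IRE1 and ATF6, PERK phosphorylates eIF2alpha and so favours translation of ATF4, IRE1 splices the Xbp1 mRNA, and ATF6 is cut in the Golgi to release a transcription factor. These factors induce ER chaperones, degradation genes and, under lasting stress, the proapoptotic factor CHOP, encoded by Ddit3. Crebrf, known as well as Luman recruitment factor, binds CREB3 (Luman), an ER-anchored transcription factor related to ATF6, and promotes its loss. ER chaperones and their regulators are expressed in brain cells at rest, so a level of these mRNAs is not by itself a sign of stress.

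Several ER stress genes share letters in their promoters. ATF6 and XBP1 act through the ER stress element (ERSE), which is CCAAT and CCACG separated by 9 bases, and through ERSE-II, which is ATTGG and CCACG separated by 1 base. RefSeq windows of 300 bases, from 250 before to 50 after the start site in RefSeq (GRCm38.p6), were found for all 10 genes and searched on both strands. For some genes, Hspa5 among them, this site lies apart from the gene start in the deposited coordinates given below. The windows with a match are printed 5′ to 3′ on the strand of the gene, together with that of Crebrf, whose level differed most between the groups. Capitals mark the fixed letters of an ERSE or ERSE-II and, in Herpud1, of an ATF4 response element core. The windows lie, in the order printed, at chr2:34771840-34772139 (plus strand), chr10:86705395-86705694 (minus strand), chr8:84846882-84847181 (minus strand), chr8:94386179-94386478 (plus strand) and chr17:26715400-26715699 (plus strand).
Hspa5: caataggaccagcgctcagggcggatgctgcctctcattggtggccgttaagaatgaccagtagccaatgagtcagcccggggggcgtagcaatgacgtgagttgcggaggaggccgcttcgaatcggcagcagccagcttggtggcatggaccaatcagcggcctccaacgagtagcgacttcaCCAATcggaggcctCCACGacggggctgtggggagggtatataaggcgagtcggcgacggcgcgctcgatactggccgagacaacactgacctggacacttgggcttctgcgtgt
Hsp90b1: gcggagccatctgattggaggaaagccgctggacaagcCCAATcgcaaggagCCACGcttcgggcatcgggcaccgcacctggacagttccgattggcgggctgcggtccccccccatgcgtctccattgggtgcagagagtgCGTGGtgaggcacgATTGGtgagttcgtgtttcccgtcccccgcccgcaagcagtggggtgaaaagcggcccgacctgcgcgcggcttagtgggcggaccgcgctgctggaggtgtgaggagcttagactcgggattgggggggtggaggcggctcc
Calr: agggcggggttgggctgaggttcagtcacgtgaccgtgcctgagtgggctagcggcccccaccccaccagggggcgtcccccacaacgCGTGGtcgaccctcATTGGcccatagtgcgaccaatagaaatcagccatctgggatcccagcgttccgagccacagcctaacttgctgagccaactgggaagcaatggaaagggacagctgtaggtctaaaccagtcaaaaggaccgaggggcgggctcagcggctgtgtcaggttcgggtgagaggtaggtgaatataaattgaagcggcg
Herpud1: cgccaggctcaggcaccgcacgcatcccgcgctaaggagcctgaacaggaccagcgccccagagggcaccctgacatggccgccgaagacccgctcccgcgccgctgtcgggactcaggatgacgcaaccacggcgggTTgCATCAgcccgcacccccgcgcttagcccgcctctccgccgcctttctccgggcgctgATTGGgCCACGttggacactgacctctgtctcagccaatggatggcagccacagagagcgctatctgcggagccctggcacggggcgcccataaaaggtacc
Crebrf: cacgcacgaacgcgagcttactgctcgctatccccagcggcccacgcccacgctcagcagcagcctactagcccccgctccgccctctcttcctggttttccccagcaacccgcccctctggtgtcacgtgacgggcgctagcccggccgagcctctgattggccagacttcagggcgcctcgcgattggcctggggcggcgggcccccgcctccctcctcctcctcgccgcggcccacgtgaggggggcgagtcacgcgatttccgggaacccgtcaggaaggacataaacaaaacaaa

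Hspa5 held 1 ERSE, Hsp90b1 held 2, of which 1 was on each strand, Calr held 1 on the opposite strand, and Herpud1 held 1 ERSE-II. Over all 32851 RefSeq windows of this length, 0.119% held an ERSE and 0.037% an ERSE-II. Herpud1 also held, on the opposite strand, the core of the ATF4 response element (TGATG and AA separated by 1 base), which was in 3.969% of all windows. The core of the unfolded protein response element used by XBP1 (TGACG followed directly by TGG), which was in 0.676% of all windows, was in none of the 10. The windows of Pdia4, Dnajb9, Xbp1, Atf4, Ddit3 and Crebrf held none of these 4 motifs. Crebrf held 2 separate CCAAT boxes on the opposite strand and 3 separate CCACG, letters that alone were in 37.408% and 32.769% of all windows and that also form parts of the ERSE. A match describes these letters only and is not a measured binding site.

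Depth was similar across libraries, at 16081281 to 18751057 reads on genes, and 3 reads on a gene of 1 kb corresponded to an FPKM of 0.160 to 0.190. Each of the 10 genes had 237 to 4645 reads in each library, which corresponds to a counting error (1 SD) of 1.47% to 6.50% of the value. Hippocampal neuron markers were present at a similar level in all libraries (summed FPKM 271 to 326 in WT and 279 to 303 in TG). TG1 and TG2 stood apart by their choroid plexus genes. The summed FPKM of 20 choroid plexus markers was 85.2 to 115 in WT, 1355 in TG1, 4235 in TG2 and 94.8 in TG3. Of the 20, 10 were higher in TG mice at an unadjusted limma p under 0.05, none was at 0 in all libraries, and Ttr, which codes for transthyretin, had an FPKM of 1168 in TG1 and 3706 in TG2 beside 57.7 in TG3. Plasma and B cell markers, whose cells are rich in ER, summed to 12.1 to 15.9 in WT, 13.5 in TG1, 188 in TG2 and 336 in TG3. Of these 8 markers, 7 were tested and 3 were higher at an unadjusted limma p under 0.05. Igkc had an FPKM of 153 in TG2 and 257 in TG3 of these sums. Summed markers of astrocytes were at 526 to 605 in WT and 527 to 554 in TG, of oligodendrocytes at 599 to 753 and 463 to 694, and of microglia at 134 to 150 and 122 to 166, and of endothelium at 80.3 to 92.5 and 86.8 to 90.6. Meningeal fibroblast markers summed to 25.2 to 47.3 in WT and 38.8 to 78.3 in TG. Igfbp2 made up much of these sums, at 18.8, 11.8 and 12.3 in the WT and 36.1, 63.5 and 18.5 in the TG libraries. The median log2 deviation of these markers from the WT mean was 0.67, -0.21, -0.37, 0.43, -0.26 and 0.56 over the 6 libraries. Immediate early genes summed to 158 to 202 in WT and 185 to 254 in TG. The part of these markers in the values below was not tested, except that results were recomputed with TG3 alone and with a choroid plexus score as a covariate. That score was 2.64 in TG1 and 4.09 in TG2, beside 0.04 in TG3 and -0.16 to 0.27 in WT. It thus rises with genotype, and both settings rest largely on TG3, so they are not separate checks. Slc1a2 mRNA itself stood at an FPKM of 202, 199.55 and 177 in the WT and 222, 207 and 217 in the TG libraries (log2 fold change 0.16, limma adjusted p = 0.789). Every TG library was above every WT library, as for 6.35% of all genes tested. A gene-level FPKM cannot show the 2 amino acid changes, and mRNA does not give the level of the GLT-1 protein.

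None of the 10 genes differed between WT and TG mice at an adjusted p under 0.05 (limma on log2(FPKM + 0.1), Benjamini-Hochberg over all 20952 genes). At an unadjusted p under 0.05, 1 of 10 was higher in TG mice, Crebrf, and 0 of 10 were lower, beside 3.13% of all genes tested that were higher and 2.78% that were lower. Adjusted p-values under 0.05 were reached by 2 genes of the table, which is 0.00955%. limma-voom on reads recovered from the FPKM also gave 1 member higher at an unadjusted p under 0.05 and 0 at an adjusted p under 0.05. Every TG library was above every WT library for 1 of 10 genes, again Crebrf, and below for 0 of 10, beside 6.35% and 5.71% of all genes. The log2 fold changes were above 0 for 6 genes and below 0 for 4, with a median of 0.05 beside -0.002 over all genes tested. For the other 9 genes the 95% interval of the difference included 0, and over these 9 it reached from a fold of 0.782 at the lowest, for Dnajb9, to 1.38 at the highest, for Pdia4. In bulk tissue, fewer cells of a type and less RNA per cell cannot be told apart.

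**Figure D1:**
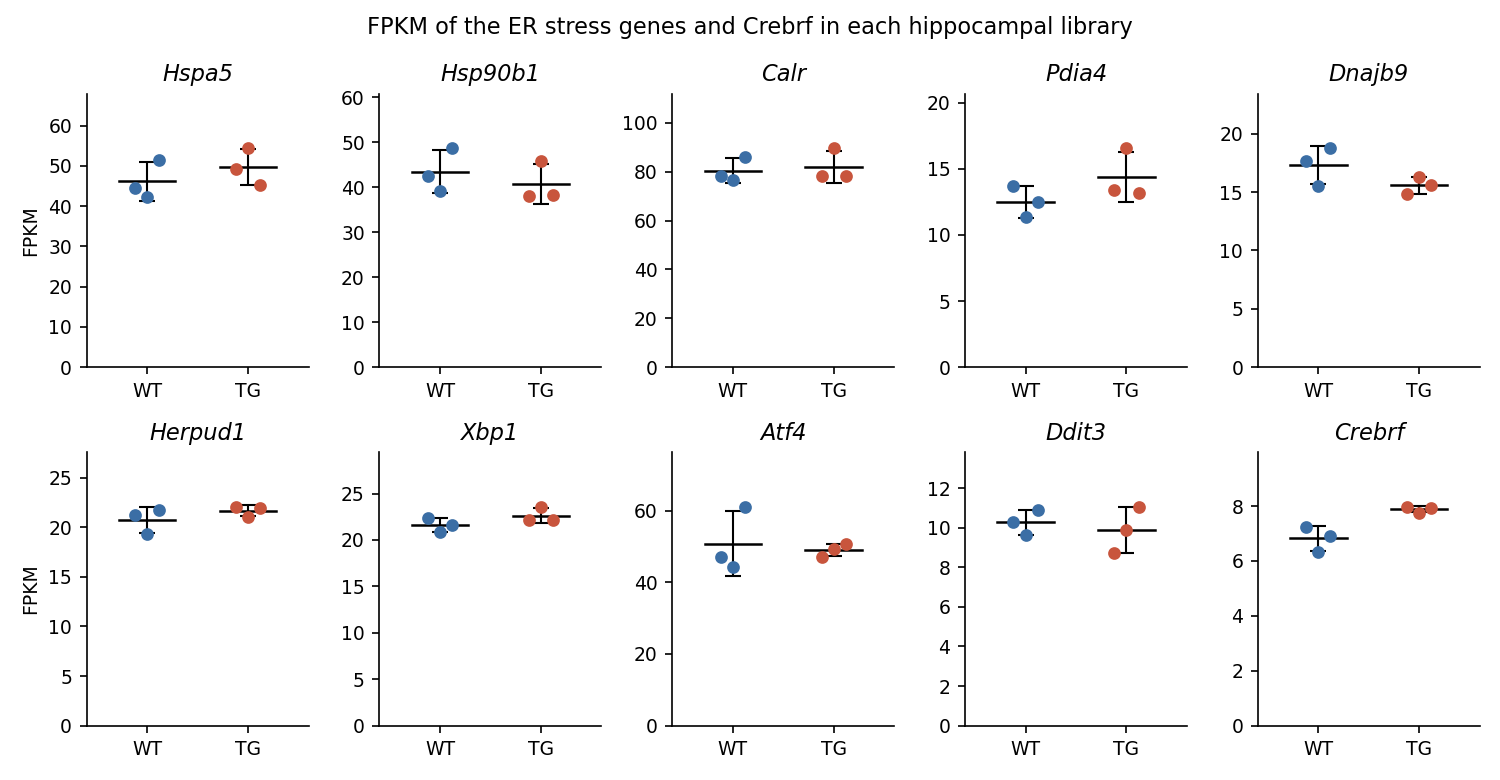
FPKM (y axis, linear from 0) of each of the 10 genes, with 1 point per library for 3 WT mice (blue) and 3 TG mice (red), a line at the mean and bars for the SD. The points of the groups overlap in 9 panels, and in the Crebrf panel the TG points, at 7.76 to 7.98, all lie above the WT points, at 6.31 to 7.24.

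Crebrf (ENSMUSG00000048249, chr17:26715650-26776635, plus strand) stood at an FPKM of 7.24, 6.31 and 6.92 in the WT and 7.98, 7.76 and 7.93 in the TG libraries. The TG values were close together and all were above the highest WT value. They differed among themselves by an SD of 1.42%, less than the counting error of 2.93% that their mean of 1167 reads gives, and those of WT mice by 6.90% beside a counting error of 3.10%. The means were 6.82 ± 0.471 in WT and 7.89 ± 0.112 in TG mice (SD, n = 3 each). In limma, the log2 fold change was 0.21 (SE 0.0797, 95% interval 0.02 to 0.40), a fold of 1.16 on the log2(FPKM + 0.1) scale, with an unadjusted p of 0.0329 and an adjusted p of 0.786. The exact two-sided permutation test gave p = 0.1, the smallest value that 3 against 3 libraries allow. Crebrf shares no stretch of 50 bases with another gene and overlaps no exon of one.

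The Crebrf difference kept its direction in all refits but not its side of the threshold. Over 20 other settings the log2 fold change was above 0 in all 20, from 0.15 to 0.25, and the unadjusted p was under 0.05 in 11. Since every TG value was above every WT value, leaving out libraries could not reverse the direction. Other settings, such as the filters, no variance trend or the replicate block, leave the log2 fold change as it is by design. The count of 20 thus overstates how far the direction was tried. With WT2, TG1, TG2 or TG3 left out in turn it was 0.16, 0.20, 0.22 and 0.21, with unadjusted limma p of 0.0624, 0.0640, 0.0541 and 0.0720. Against the WT libraries, TG3 alone, in which choroid plexus genes were at the WT level, gave 0.22 with an unadjusted limma p of 0.145, and the choroid plexus score as a covariate gave 0.22 with a p of 0.135. Crebrf is a long gene, at 8564 bases of exon, and among 2036 genes of 6853 to 10702 bases whose mean FPKM reached 1, 4.17% were higher and 0.442% lower at an unadjusted p under 0.05, with a median log2 fold change of 0.05. Of these 2036 genes, every TG library was above every WT library for 202 and below for 73. Over all 20952 genes tested, the counts were 1330 and 1197. With each library corrected for gene length, Crebrf had a log2 fold change of 0.15 with an unadjusted limma p of 0.135, and with a correction for length and GC content it had 0.21 with a p of 0.0312.

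Of the 4 lumenal chaperones, 3 were among the most abundant genes of the set. Hspa5 (ENSMUSG00000026864, chr2:34771970-34777547, plus strand) encodes BiP, the HSP70 of the ER lumen, and is the classical readout of ER stress. It stood at an FPKM of 44.5, 42.3 and 51.5 in the WT and 49.3, 54.4 and 45.4 in the TG libraries. TG2 was the highest and WT2 the lowest, and TG1 and TG3 were within the WT range. The means were 46.1 ± 4.77 in WT and 49.7 ± 4.52 in TG mice (SD, n = 3 each). This is a log2 fold change of 0.11, with a 95% interval from -0.13 to 0.35 (limma adjusted p = 0.794). The interval held a fold of at most 1.27. With TG3 alone the log2 fold change was -0.02. It was also -0.02 with the choroid plexus score as a covariate, a fit that likewise rests largely on TG3. The direction for Hspa5 thus rested on TG1 and TG2.

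Hsp90b1 (ENSMUSG00000020048, chr10:86690209-86705509, minus strand) encodes GRP94, the HSP90 of the ER. Its FPKM was 42.6, 39.1 and 48.7 in the WT and 38.0, 45.8 and 38.2 in the TG libraries. TG1 and TG3 were just below the lowest WT library and TG2 was inside the WT range. This gave a log2 fold change of -0.10 (SE 0.110, 95% interval -0.35 to 0.16, limma adjusted p = 0.835). Of its transcript sequence, 9.75% of 50-base stretches also occur in 1810014B01Rik, Gm15344 or Gm25745, of which 1810014B01Rik overlaps it on the opposite strand over 415 exon bases, so a small share of its reads is uncertain.

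Calr (ENSMUSG00000003814, chr8:84841850-84846934, minus strand) encodes calreticulin, a lectin chaperone and the main calcium buffer of the ER lumen. Its FPKM was 78.3, 76.6 and 86.1 in the WT and 78.4, 89.6 and 78.1 in the TG libraries, so that TG1 and TG3 were next to WT1 and WT2. The means were 80.3 ± 5.10 and 82.0 ± 6.57 (SD, n = 3 each). With a log2 fold change of 0.03 (95% interval -0.17 to 0.23, limma adjusted p = 0.942), a change beyond a fold of 0.888 to 1.17 was outside the interval. The log2 fold change was -0.005 without WT2 and -0.04 without TG2.

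Pdia4 (ENSMUSG00000025823, chr6:47796141-47813430, minus strand) encodes ERp72, a protein disulphide isomerase. It stood at an FPKM of 13.7, 11.3 and 12.5 in the WT and 13.4, 16.6 and 13.2 in the TG libraries. Only TG2 was above the WT range. TG2 had the most choroid plexus RNA, and its plasma and B cell markers summed to 188, beside 12.1 to 15.9 in WT. TG1, with a choroid plexus sum of 1355, and TG3, with a plasma and B cell sum of 336, were within the WT range. The part of either cell type in Pdia4 was not tested. The log2 fold change of Pdia4 was 0.20 (SE 0.115, 95% interval -0.07 to 0.46, limma adjusted p = 0.789). It was 0.09 without TG2, 0.08 with TG3 alone and 0.02 with the choroid plexus score as a covariate. It was 0.26 without WT1, and 0.25 with the length and GC correction, where the unadjusted limma p was 0.0380.

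The summed FPKM of these 4 chaperones, Hspa5, Hsp90b1, Calr and Pdia4, was 179, 169 and 199 in the WT and 179, 206 and 175 in the TG libraries. The highest WT and the highest TG library differed less from each other than the WT libraries did among themselves. TG2 had the highest value of its group for all 4 genes, and WT3 had the highest of its group for 3 of them, Pdia4 being the exception.

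Dnajb9 (ENSMUSG00000014905, chr12:44205559-44210326, minus strand) encodes ERdj4, a J-domain partner of BiP that is a target of XBP1 and holds IRE1 inactive. Its FPKM was 17.7, 15.5 and 18.8 in the WT and 14.8, 16.3 and 15.6 in the TG libraries. The TG libraries lay around WT2 and below WT1 and WT3. On the log2 scale the difference was -0.15 (SE 0.0881, 95% interval -0.36 to 0.06, limma adjusted p = 0.789). Without WT2 it was -0.22 with an unadjusted limma p of 0.0234, the only setting of 20 in which it was under 0.05. It was -0.09 without WT3 and -0.03 with the length and GC correction. Of its transcript sequence, 5.50% of 50-base stretches also occur in Gm6568.

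Herpud1 (ENSMUSG00000031770, chr8:94386438-94395377, plus strand) encodes HERP, a membrane protein of the ER degradation complex. Its FPKM was 21.2, 19.3 and 21.8 in the WT and 22.1, 21.0 and 21.98 in the TG libraries, which left only WT2 clearly apart from the others. On the log2 scale the difference was 0.06 (SE 0.0710, 95% interval -0.10 to 0.23, limma adjusted p = 0.829). For Herpud1, the member with matches for both an ERSE-II and an ATF4 core in the window printed above, the 95% interval ran from a fold of 0.931 to 1.17.

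Of the transcription factors, Xbp1 (ENSMUSG00000020484, chr11:5520659-5525893, plus strand) had among the tightest values, at an FPKM of 22.3, 20.8 and 21.6 in the WT and 22.1, 23.6 and 22.1 in the TG libraries. TG1 and TG3 were inside the WT range and TG2 was above it. Between genotypes the log2 fold change was 0.07 (SE 0.0646, 95% interval -0.08 to 0.22, limma adjusted p = 0.799). The gene-level value adds spliced and unspliced Xbp1 mRNA, so it does not measure the activity of IRE1.

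Atf4 (ENSMUSG00000042406, chr15:80255184-80257541, plus strand) encodes the main effector of PERK and is regulated largely in translation, which mRNA levels do not show. Its FPKM was 47.0, 44.2 and 61.1 in the WT and 47.1, 49.3 and 50.7 in the TG libraries. WT3 was far above the other 5 libraries, and the TG libraries lay between WT1 and WT3. The means were 50.7 ± 9.06 in WT and 49.0 ± 1.78 in TG mice (SD, n = 3 each). The log2 fold change was -0.04 (95% interval -0.32 to 0.25, limma adjusted p = 0.949) with all libraries and 0.11 without WT3, so its direction depended on that library.

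Ddit3 (ENSMUSG00000025408, chr10:127290774-127296288, plus strand) encodes CHOP, a target of ATF4 and a driver of ER stress-induced death. Its FPKM was 10.3, 9.61 and 10.9 in the WT and 8.74, 9.90 and 11.1 in the TG libraries. The lowest and the highest value were both TG libraries. Between genotypes the log2 fold change was -0.06 (SE 0.103, 95% interval -0.30 to 0.18, limma adjusted p = 0.898), and it was 0.03 without TG1. Of its transcript sequence, 4.38% of 50-base stretches occur in other genes of the table, its own short row and Mars, which overlaps it on the opposite strand over 68 exon bases.

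**Figure D2:**
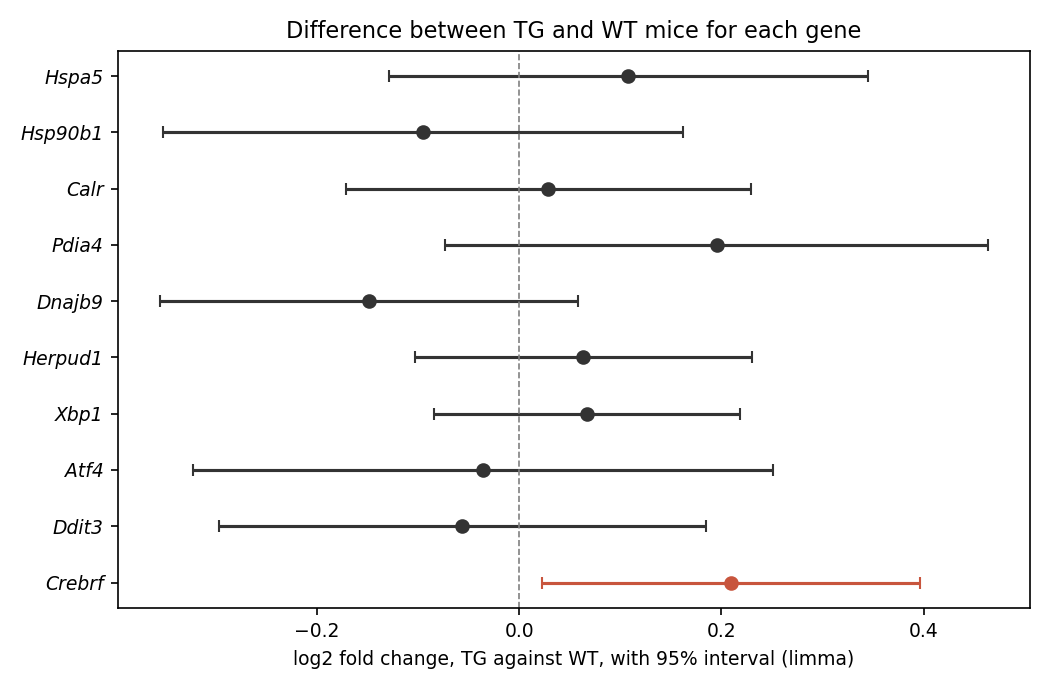
The log2 fold change (x axis, TG against WT on log2(FPKM + 0.1)) of each of the 10 genes (y axis) with its 95% interval from limma. The interval includes 0 for 9 genes, and that of Crebrf, in red, runs from 0.02 to 0.40.

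FPKM is scaled to gene length, so levels can be ordered between genes. In WT mice the order of the mean FPKM was Calr, Atf4, Hspa5, Hsp90b1, Xbp1, Herpud1, Dnajb9, Pdia4, Ddit3 and Crebrf. The WT ranges of neighbours overlapped for Atf4 and Hspa5, for Hspa5 and Hsp90b1, and for Xbp1 and Herpud1. Within a library, Atf4 was above Hspa5 in 4 of 6, Hspa5 above Hsp90b1 in 6 of 6 and Xbp1 above Herpud1 in 5 of 6. The other 6 neighbouring pairs did not overlap in WT. Calr, Hspa5 and Hsp90b1 thus stood at the top together with Atf4, and Pdia4, Ddit3 and Crebrf at the bottom, although Ddit3, at an FPKM of 8.74 to 11.1, was well above the detection floor in each library.

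The 10 genes also differed between mice of the same genotype. WT2 had the lowest value of the 3 WT libraries for 10 of 10 genes, and its median log2 deviation from the WT mean was -0.11. WT3 had the highest for 7 of 10, with a median of 0.10. WT2 was the lowest WT library for 49.1% of 114 other genes of the unfolded protein response and for 40.2% of 7738 genes whose mean FPKM reached 5, and WT3 was the highest for 49.6% of the latter. Over all 20952 genes tested, WT2 was the lowest for 31.3% and WT3 for 36.4%, and WT3 was the highest for 34.9%. Among TG libraries the median log2 deviation of the 10 genes from the WT mean was 0.00 in TG1, 0.1045 in TG2 and 0.03 in TG3. TG1 and TG3 lay within the WT span of -0.11 to 0.0962, and TG2 was just above it. WT2 also had the fewest reads on genes of the 6 libraries, and whether depth plays a part was not tested.

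Genes with the most similar profile over the 6 libraries were sought among 11916 protein-coding genes whose mean FPKM reached 1, by the root mean square difference of the centred log2 values. Nearest to Crebrf were Ddah1 (0.0199), Wdr20 (0.0240), Nsun6 (0.0248), Setdb2 (0.0282) and Stam2 (0.0332), beside an SD of 0.1199 of Crebrf itself. Ddah1, which degrades methylated arginines, stood at an FPKM of 19.0, 16.5 and 18.0 in the WT and 20.1, 19.9 and 20.8 in the TG libraries. Since Ddah1 was picked by these same values, its low WT2 value and the separation of its groups follow from that choice. Nearest to Hspa5 were Cfap157 (0.0235), Pcca (0.0316), Slc25a39 (0.0368), Pcyox1l (0.0375) and Psap (0.0395), beside an SD of 0.125 of Hspa5. None of these 5 is an ER chaperone.

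The wider unfolded protein response was read from 114 further genes in 8 lists by role, all of which passed the filter on low values. None had an adjusted limma p under 0.05. At an unadjusted p under 0.05, 3 were higher in TG mice (2.63%) and 4 were lower (3.51%), beside 3.13% and 2.78% of all genes tested, so the shares were near the background. The median log2 fold change was 0.01, with 69 genes above 0 and 45 below.

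**Figure D3:**
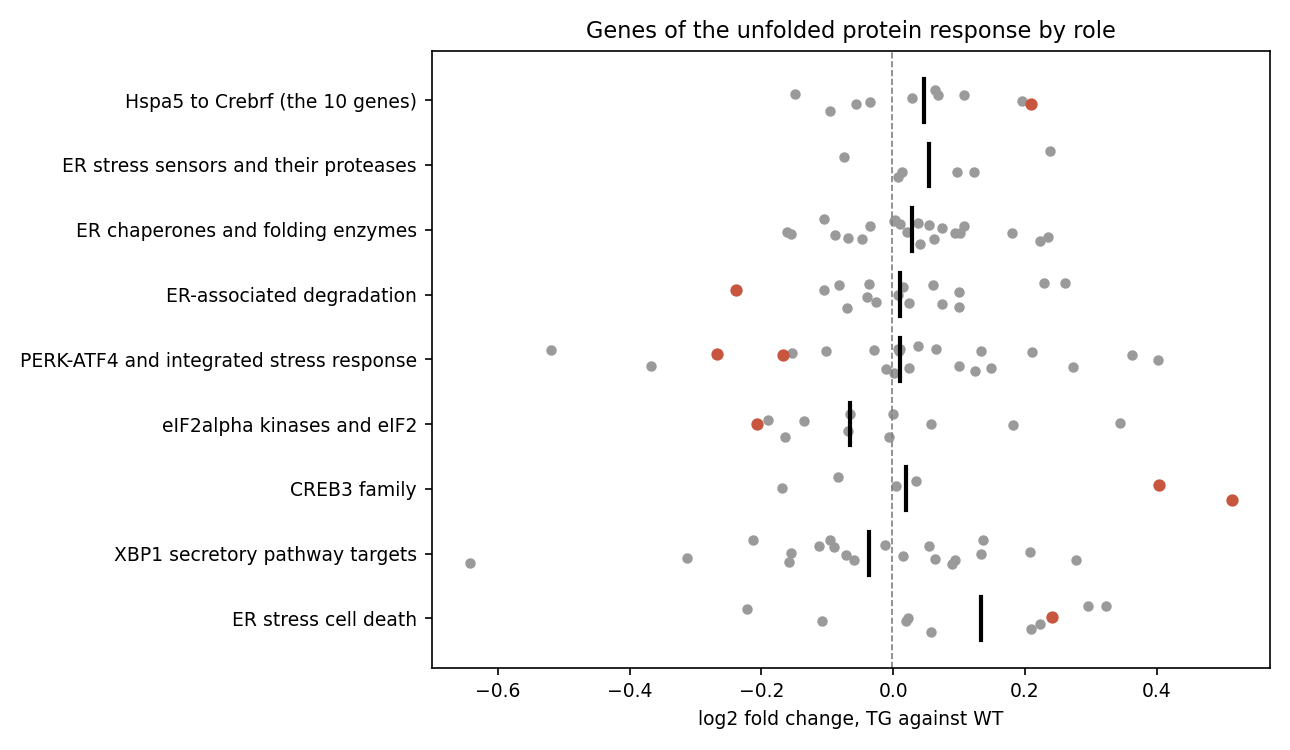
The log2 fold change (x axis, TG against WT) of each gene, with 1 row for the 10 genes and 1 for each of the 8 other lists, a black bar at the median and genes with an unadjusted limma p under 0.05 in red. The medians lie between -0.07 for the eIF2 list and 0.13 for the cell death list, and 8 genes in all are red.

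Among 6 ER stress sensors and their proteases, none passed an unadjusted p under 0.05 and the median log2 fold change was 0.06. The smallest p was that of Ern1, the gene of IRE1, with a mean FPKM of 1.70 ± 0.188 in WT and 2.02 ± 0.216 in TG mice (limma unadjusted p = 0.138, adjusted p = 0.789). The most abundant, Atf6b, had 25.97 ± 1.87 and 26.1 ± 0.253. Among 22 other ER chaperones and folding enzymes, again none passed and the median was 0.03. Dnajc3, the gene of the BiP partner p58IPK, came nearest with 12.8 ± 0.817 in WT and 15.0 ± 1.69 in TG mice (limma unadjusted p = 0.0595). Fkbp2, a prolyl isomerase and the most abundant, had 66.6 ± 11.8 and 61.4 ± 4.29. The 20 secretory pathway targets of XBP1 had a median of -0.04 with none past the threshold, with Sec61g, a translocon subunit, nearest (7.96 ± 1.252 against 6.39 ± 0.969, limma unadjusted p = 0.0707) and Wfs1 the most abundant (34.1 ± 4.39 against 39.2 ± 3.09). Wfs1 is also a marker of CA1 pyramidal neurons.

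The 4 genes that were lower at an unadjusted p under 0.05 belonged to degradation, the PERK branch and eIF2. Of 16 genes of ER-associated degradation, 1 was lower at an unadjusted p under 0.05, Selenos, whose product is a selenoprotein of the VCP-recruiting complex. Its FPKM was 24.8, 23.6 and 28.2 in the WT and 19.9, 22.4 and 22.4 in the TG libraries, with every TG library below every WT library (log2 fold change -0.24, limma unadjusted p = 0.0323, adjusted p = 0.786). Without WT1, WT3, TG1 or TG3 the log2 fold change was -0.26, -0.17, -0.18 and -0.27, with unadjusted limma p of 0.0593, 0.0740, 0.102 and 0.0518.

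Of 23 genes of PERK, ATF4 and the integrated stress response, 0 were higher and 2 were lower at an unadjusted p under 0.05, and the median log2 fold change was 0.01. Chac1, an ATF4 and CHOP target that degrades glutathione, stood at an FPKM of 5.15, 4.77 and 4.50 in the WT and 4.05, 3.54 and 4.36 in the TG libraries. Its log2 fold change was -0.27 (limma unadjusted p = 0.0424, adjusted p = 0.786), and the unadjusted p was 0.0753 to 0.127 when WT1, WT2, TG1 or TG2 was left out, at -0.28 to -0.19. With the choroid plexus score as a covariate it was -0.13 and with TG3 alone -0.13, with unadjusted limma p of 0.418 and 0.345. Psat1, an ATF4 target of serine synthesis, had 29.2, 28.8 and 31.0 in the WT and 24.9, 26.7 and 27.7 in the TG libraries. Its log2 fold change was -0.17 (limma unadjusted p = 0.0465, adjusted p = 0.786), and the unadjusted p was 0.0713 to 0.0980 when WT1, WT3, TG1 or TG2 was left out, at -0.18 to -0.12. With TG3 alone it was -0.10, with an unadjusted limma p of 0.285. For both genes the groups did not overlap, which for lower TG values held for 5.71% of all genes. Ddit4, the most abundant of the list, had 45.1 ± 8.09 in WT and 49.5 ± 2.00 in TG mice.

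Of 11 eIF2alpha kinases and eIF2 and eIF2B subunits, 1 was lower, and the median was -0.07. Eif2b4, a regulatory subunit of the exchange factor that phosphorylated eIF2alpha inhibits, stood at an FPKM of 12.8, 11.5 and 13.7 in the WT and 11.4, 10.6 and 10.9 in the TG libraries, so that the highest TG value was just under the lowest WT value. Its log2 fold change was -0.21 (limma unadjusted p = 0.0437, adjusted p = 0.786). The unadjusted p was 0.0534 to 0.115 when WT1, WT3, TG1, TG2 or TG3 was left out, at -0.23 to -0.15. Eif2b5, the catalytic and most abundant subunit of the list, had 18.9 ± 1.09 and 19.6 ± 0.488.

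Since the product of Crebrf acts on CREB3, the CREB3 family was read, together with Crebzf, as a list of its own. Of 6 genes, 2 were higher at an unadjusted p under 0.05, Creb3l2 and Creb3l1, and 0 were lower, which is 33.3% of a very short list beside 3.13% of all genes. Creb3l2, the gene of BBF2H7, stood at an FPKM of 2.41, 2.14 and 1.87 in the WT and 2.92, 2.69 and 2.95 in the TG libraries. Every TG library was above every WT library, at a log2 fold change of 0.40 (SE 0.126, 95% interval 0.11 to 0.70, limma unadjusted p = 0.0144, adjusted p = 0.786). Without TG3 it was 0.38 with an unadjusted limma p of 0.0513, and the unadjusted p was under 0.05 in 17 of 20 settings. Creb3l1, the gene of OASIS, a factor described in astrocytes, had 1.72, 1.33 and 1.05 in the WT and 1.80, 2.34 and 1.79 in the TG libraries. Its groups lay apart too, but WT1 was close to TG1 and TG3. The log2 fold change was 0.51 (SE 0.206, limma unadjusted p = 0.0398, adjusted p = 0.786), and without WT2, WT3, TG1, TG2 or TG3 it was 0.51, 0.35, 0.57, 0.39 and 0.58, with unadjusted p of 0.0675 to 0.144. With the choroid plexus score as a covariate, Creb3l2 had 0.45 and Creb3l1 0.30, with unadjusted limma p of 0.0543 and 0.327. With TG3 alone, Creb3l2 had 0.45 and Creb3l1 0.39. The part of the meningeal markers was not tested. Their sum was highest in TG1 and TG2, but their median log2 deviation from the WT mean was highest in WT1 (0.67) and was -0.26 in TG2.

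Creb3 itself, the partner of the Crebrf product, stood at an FPKM of 15.4, 16.03 and 18.7 in the WT and 15.2, 15.4 and 14.0 in the TG libraries. Every TG library was below every WT library, by a small margin for TG2 against WT1, and the log2 fold change was -0.17 (95% interval -0.38 to 0.05, limma unadjusted p = 0.108, adjusted p = 0.789). Crebzf, a repressor that also binds this family and the most abundant of the list, had 16.8 ± 0.719 in WT and 15.9 ± 0.557 in TG mice. Creb3l3 and Creb3l4, known from liver and from prostate and testis, were near the floor, with mean FPKM of 0.296 and 0.213.

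**Figure D4:**
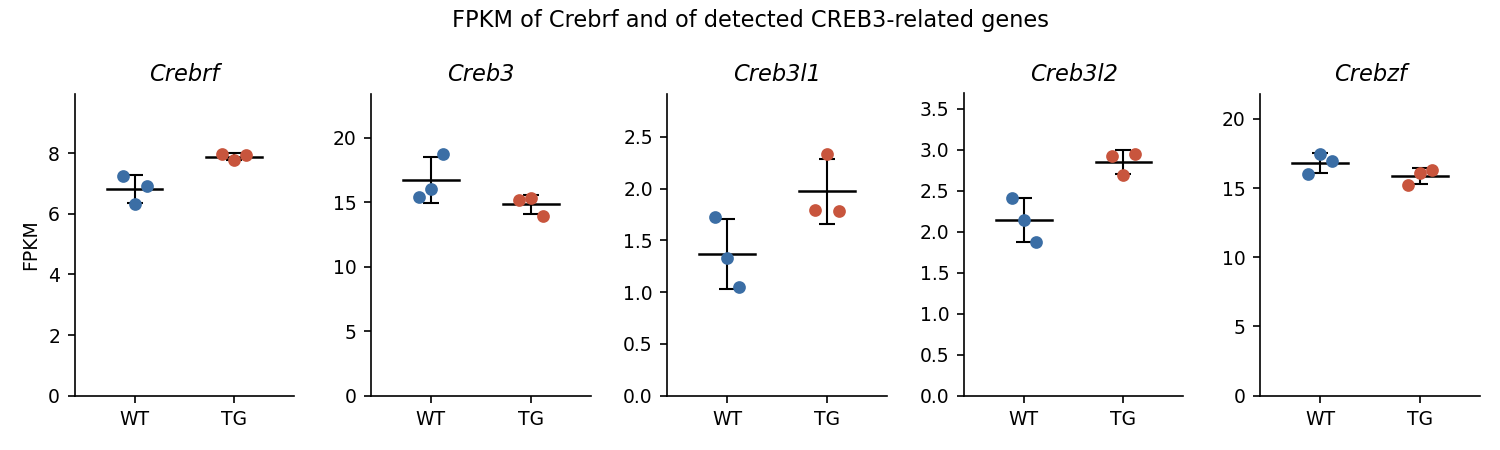
FPKM (y axis, linear from 0) of Crebrf and of the 4 CREB3-related genes above the floor, with 1 point per library for 3 WT (blue) and 3 TG mice (red), a line at the mean and bars for the SD. The TG points lie above the WT points for Crebrf, Creb3l1 and Creb3l2 and below them for Creb3, and the groups overlap for Crebzf.

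Of 10 genes of ER stress-induced death and ER calcium release, 1 was higher (10%, beside 3.13% of all genes tested), and the median of the list was 0.13. Itpr1, the gene of the type of inositol trisphosphate receptor that predominates in brain, stood at an FPKM of 23.9, 24.7 and 20.3 in the WT and 29.0, 25.7 and 26.6 in the TG libraries. The groups did not overlap, which for higher TG values held for 6.35% of all genes, and the log2 fold change was 0.24 (limma unadjusted p = 0.0355, adjusted p = 0.786). Without WT1, WT3, TG1 or TG3 it was 0.27, 0.16, 0.19 and 0.25, with unadjusted limma p of 0.0538, 0.0699, 0.115 and 0.0751. With each library corrected for gene length and GC content it was 0.10 with an unadjusted limma p of 0.112. Tmbim6, an inhibitor of this death pathway and the most abundant of the list, had 73.6 ± 7.87 and 74.5 ± 4.25.

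Genes were also grouped by the letters of their promoters. An ERSE or ERSE-II was in the window of 49 genes, and of the 29 with a level high enough to test, 1 was higher at an unadjusted p under 0.05 and 0 were lower, with a median log2 fold change of 0.01. The gene was Nucb1, which encodes a calcium-binding Golgi protein and had a mean FPKM of 7.41 in WT and 9.05 in TG mice (limma unadjusted p = 0.0413, adjusted p = 0.786), with overlapping groups. Of 130 tested genes with the XBP1 element core, 5.38% were higher and 0.769% lower, and of 378 with the ATF4 core, 3.97% were higher and 1.85% lower, with medians of 0.02 and 0.01. Beside these, 3.13% of all genes tested were higher and 2.78% lower, and the 1 of 29 genes with an ERSE or ERSE-II is 3.45%. Hspa5, Hsp90b1 and Calr, whose ERSE are printed above, had log2 fold changes of 0.11, -0.10 and 0.03.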

How the data were processed

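Hippocampal RNA of 3 WT and 3 TG mice was sequenced, and the authors deposited 1 table of FPKM, which per the methods were computed from HTSeq (v0.6.0) read counts and gene length, with a separate column for each mouse. The submitters' processing notes name GRCm38 and mm10, and the aligner and the use of strand are not given in the sources used here. Genes that overlap or share sequence with another are therefore uncertain, as stated beside them. The methods name Trizol and a NEBNext Ultra kit, and the labels an RNeasy and a SMARTer kit, so the chemistry is open. Of the gene identifiers, 54409 were found in GENCODE M21 (GRCm38), and 53499 had the same start and end. Promoter windows came from RefSeq (GRCm38.p6).

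FPKM times gene length gave whole reads for 100% of values (tolerance 0.05), with 16081281 to 18751057 reads on genes per library. Molecular identifiers are not mentioned in the sources used here, reads may thus not be independent molecules, and counting errors and floors cover counting only. The values already carried median-of-ratios scaling, since these factors were 1.0024 in all 6 libraries. Genes whose mean FPKM reached 0.1 were tested with limma 3.58.1 in R 4.3.3 (lmFit and eBayes with a variance trend) on log2(FPKM + 0.1), 3 WT against 3 TG, without covariates, with Benjamini-Hochberg adjustment at 0.05. Folds are on that scale, which understates changes of low genes. Single genes were compared by exact two-sided permutation, for which 0.1 is the smallest p. A count model was not the main test because the deposited values are FPKM. The limma p-values set the group difference against the spread between these mice, moderated toward that of genes of similar level. Tables and figures were made in Python 3.11.15 with pandas 2.3.3 and matplotlib 3.10.9. The fit was tested on simulated data, with changes much larger than those of the genes above and without differences in cell make-up. It does not show whether changes of their size would be found.

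The 10 genes, the pathway and marker lists and the tests were chosen with earlier results of these data known. Named are all 10 genes, of each pathway list the gene with the smallest p, the most abundant one and each with an unadjusted p under 0.05, the 5 nearest profiles of Crebrf and Hspa5, and Slc1a2. A result that this rule names is not reported here. Nucb1 and the remaining CREB3 genes were named after their values were seen. Alternatives were pseudocounts of 0.01 and 1, no filter or a mean FPKM of at least 1, no variance trend, limma-voom, upper-quartile and median-of-ratios scaling, protein-coding genes, a replicate block, each library left out, a choroid plexus score as a covariate and TG3 alone. A correction for gene length, with and without GC content, was added after seeing the data. Same-numbered WT and TG libraries did not deviate together (correlations of 0.013, 0.043 and 0.003).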

Additional observations from a re-analysis of the deposited data

How the results depend on the processing

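In all 20 alternatives 0 of the 10 genes and 0 of the 114 pathway genes had an adjusted p under 0.05. Over the table, 2 genes did, and 0 did with a pseudocount of 0.01 or 1, no filter, limma-voom, protein-coding genes only, the replicate block, the choroid plexus score, TG3 alone, or the length and GC correction, 1 with a mean FPKM of at least 1 or the length correction, 9 with no variance trend, and 0 to 6 with a library left out. With the choroid plexus score, 331 genes of the table were higher and 375 lower at an unadjusted p under 0.05, beside 656 and 582. Of the 10 genes, 1 was higher at an unadjusted p under 0.05, and 0 were with no variance trend, the replicate block, the choroid plexus score, TG3 alone or the length correction, 2 with the length and GC correction (Crebrf and Pdia4) and 0 to 1 with a library left out. None was lower, and 0 to 1 were with a library left out. Of the pathway genes, 3 were higher, and 0 were with the choroid plexus score or TG3 alone and 5 with the length and GC correction. Of them 4 were lower, and 0 were with no variance trend, 1 with limma-voom, the choroid plexus score or TG3 alone, and 0 to 6 with a library left out. The cause of these moves was not tested.

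The direction, but not the size, was kept in all 20 alternatives for Crebrf (log2 fold change 0.15 to 0.25), Pdia4 (0.02 to 0.26), Dnajb9 (-0.22 to -0.03), Herpud1 (0.01 without WT2, to 0.11), Hsp90b1 (-0.22 to -0.01, the latter without WT3) and Xbp1 (0.02 to 0.09). The log2 fold change of Atf4 was -0.13 to 0.11 with a library left out (positive only without WT3), 0.008 with the choroid plexus score, 0.012 with TG3 alone and 0.0067 with the length correction. That of Calr was -0.0364 to 0.0801 with a library left out (negative without WT2, at -0.005, and without TG2), -0.0627 with the choroid plexus score and -0.0391 with TG3 alone. That of Ddit3 was -0.138 to 0.0293 with a library left out (positive without TG1), 0.0553 with the choroid plexus score and 0.108 with TG3 alone. That of Hspa5 was -0.0235 with the choroid plexus score and -0.0189 with TG3 alone. Several alternatives, such as no variance trend and the replicate block, leave the log2 fold change as it is by design. With TG3 alone, that library was assumed to vary like the WT libraries. The replicate numbers name samples only, and with the replicate block Crebrf had the same log2 fold change with an unadjusted limma p of 0.0544. With 3 mice per genotype the intervals of Hspa5, Pdia4, Atf4, Calr, Herpud1 and Xbp1 include the log2 fold change of Crebrf (0.21), and depth limits the low Creb3l3 and Creb3l4.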
